A study of Homo sapiens with 4 samples.

Results

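The genes of the unfolded protein and integrated stress response were followed in SK-BR-3 cells, a HER2-amplified breast cancer line of human origin that carries p53 with a missense mutation. The set holds 40 genes, named by their place in the pathway, of which 39 are among the 19775 genes with a probe set annotated to them alone. It was divided by role into 10 sensors and parts of the eIF2 machinery, 15 targets of the transcription factor ATF4, 11 chaperones and folding enzymes of the endoplasmic reticulum (ER), and 4 genes of ER-associated degradation (ERAD). Each gene was read from its brightest probe set, which is the one whose log2 signal averaged highest on the 4 arrays, among probe sets annotated to a single gene. SYVN1, the ERAD ubiquitin ligase gene, had none annotated to it alone and so has no value. CHAC1, a glutathione-degrading enzyme gene, had signals of 8.1, 6.2, 14.9 and 8.6 and was left out below the signal limit of 15.3, the median of all probe sets. The other 38 members were kept among 12066 genes. Of these, 36 were bright, at or above a mean signal of 110.3, among 7744 bright genes. DDIT3 and PPP1R15A were the members kept below that level.

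Total RNA was profiled on 4 arrays, 1 per group, with no replicate of any group. The control group carried control shRNA, which the treatment protocol calls an empty vector, and stood in the arm titled sicon. The second group carried p53 shRNA in the same arm. The third carried control shRNA and received siRNA against Pontin, the AAA+ ATPase encoded by RUVBL1, and the fourth carried p53 shRNA and received the same siRNA. All cells were selected with puromycin after shRNA transfection and collected 24 h after siRNA transfection. Each knockdown was therefore read as 2 pairs of arrays that do not share an array. The first p53 pair was p53 shRNA over control shRNA and the second was both knockdowns over Pontin siRNA. The first Pontin pair was Pontin siRNA over control shRNA and the second was both knockdowns over p53 shRNA. The labels do not say whether the cultures were selected separately.

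Unfolded protein in the ER is sensed by 3 membrane proteins encoded by EIF2AK3 (PERK), ERN1 (IRE1) and ATF6. PERK and the related kinases EIF2AK1, EIF2AK2 and EIF2AK4, which respond to haem lack, double-stranded RNA and uncharged tRNA, phosphorylate the translation factor eIF2 on its alpha subunit, encoded by EIF2S1. General translation then falls while the ATF4 protein is made in greater amount, and ATF4 raises genes of amino acid supply, tRNA charging and feedback. ATF6 and the spliced form of XBP1 act mainly on ER chaperones and ERAD genes. ATF4 is controlled largely at translation and XBP1 by splicing, and neither step is read by the signal of a probe set.

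The labelled cell identity was checked on markers. ERBB2, GRB7, KRT8, KRT18, KRT19 and EPCAM were bright on every array, with ERBB2 between 4823.2 and 5581.0, while the E-cadherin gene CDH1 was at 1.8 to 13.0 and the oestrogen receptor gene ESR1 at 9.3 to 22.4. Of 10 measured mesenchymal, leukocyte and endothelial markers, 3 were kept and COL1A1 alone was bright. Their summed signal was 313.9 to 388.4. RUVBL1 was 3.75-fold and 6.05-fold lower in the Pontin pairs, and also 1.2-fold and 1.94-fold lower in the p53 pairs, so Pontin transcript was not equal within the second p53 pair. Its part in the p53 ratios was not tested. The array of cells with both knockdowns had a median signal of 19.6, against 15.9 to 16.5 on the others, and its 18 hybridization controls were on average 1.42-fold brighter than on the control array. Their part in the results was not tested. Fewer cells expressing a transcript and less RNA per cell cannot be told apart in these bulk samples.

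A gene was called where it differed by 1.5-fold or more (0.58 in log2) in the same direction in both pairs. With 1 array per group the call carries no p-value, and the mean of the 2 pairs is given with its SD over those pairs. By this rule 0 members were called with p53 shRNA and 0 with Pontin siRNA. Among bright genes, 0.22% were called higher and 0.413% lower with p53 shRNA, and 0.181% higher and 1.1% lower with Pontin siRNA. Over genes kept these shares were 1.38%, 0.862%, 1.16% and 1.24%. At that background a set of 38 genes would hold few calls or none, so the count of 0 does not set the members apart. At a lower limit of 0.32 in log2 in both pairs, VLDLR was higher and ASNS and AARS1 were lower with p53 shRNA, where 1.96% of bright genes were higher and 1.95% lower (4.89% and 3.46% of genes kept). No member passed 0.32 in both Pontin pairs, where the shares were 2.17% and 4.58% of bright genes and 4.79% and 4.98% of genes kept.

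The sign of a ratio carries less than a call. Above 0 in both p53 pairs were 30.1% of bright genes and 30.6% of genes kept, and below 0 in both were 36.6% and 32.2%. For Pontin siRNA 34.3% and 33.9% were above and 36.3% and 32% below. Counts of members by sign are read against these shares. Signals that do not overlap between arrays with and without a knockdown also need the same sign in both pairs. The share of all genes with such a separation was not counted, so it does not set a member apart.

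**Figure D1:**
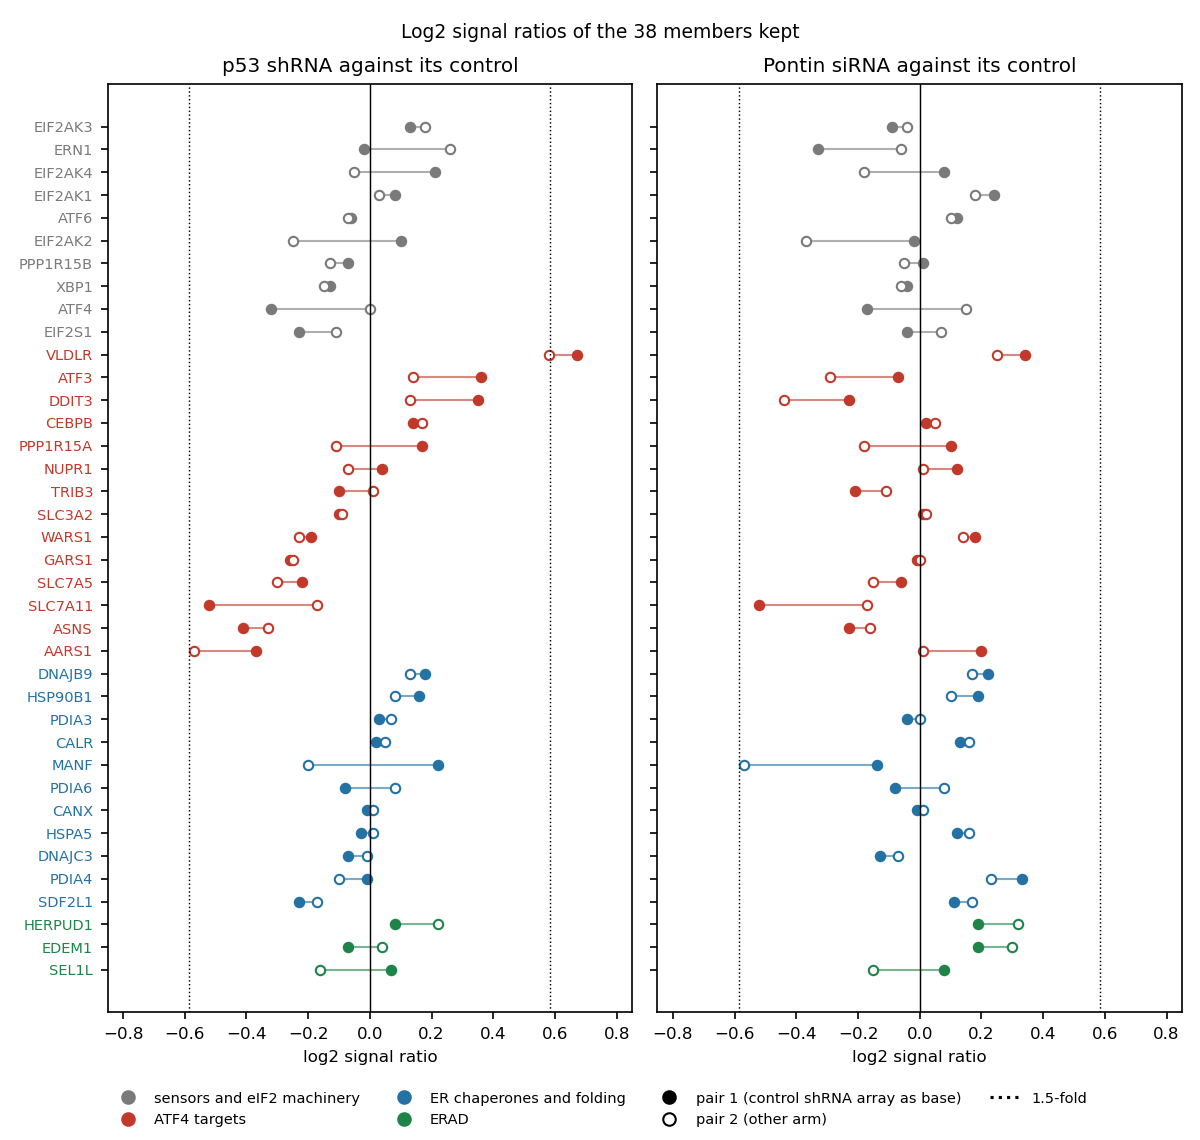
Log2 signal ratios of the 38 members kept, for p53 shRNA (left) and Pontin siRNA (right). Filled points are the first pair and open points the second, colours are roles and dotted lines mark 1.5-fold. VLDLR reaches 0.67 and 0.58 with p53 shRNA, the amino acid supply and tRNA charging genes from SLC3A2 to AARS1 lie left of 0 in both p53 pairs, and no member lies beyond 1.5-fold in both pairs.

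The sensors and eIF2 machinery had p53 ratios near 0. Their median of the mean p53 ratio was -0.07 over 10 genes, against -0.01 for bright genes, with 2 above and 4 below 0 in both pairs. ATF4 itself had a signal of 3256.4 on the control array, 2601.7 with p53 shRNA alone, 2891.0 with Pontin siRNA alone and 2894.8 with both. It was at -0.32 in the first p53 pair and 0.00 in the second, so its mean was within the spread of the pairs (mean -0.16, SD 0.23, n = 2 pairs). EIF2S1, the alpha subunit of eIF2, was at -0.23 and -0.11, and XBP1 at -0.13 and -0.15. A dim further XBP1 probe set, with signals of 3.1, 24.1, 6.7 and 27.3, gave 2.96 and 2.03 and lay below the signal limit.

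The eIF2 kinase genes differed by at most 0.25 in either p53 pair. EIF2AK3, the PERK gene, was at 0.13 and 0.18 and EIF2AK1, the haem-regulated kinase gene, at 0.08 and 0.03. EIF2AK4, the GCN2 kinase gene, was at 0.21 and -0.05, and EIF2AK2, the kinase gene PKR, at 0.10 and -0.25. ERN1 was at -0.02 and 0.26, ATF6 at -0.06 and -0.07, and PPP1R15B, the constitutive eIF2 phosphatase subunit gene, at -0.07 and -0.13. Probe sets of the same gene differed here. An ATF6 probe set with signals of 222.5, 223.3, 119.2 and 289.3 gave 0.01 and 1.28. The dimmest ATF6 probe set, still above the signal limit at 78.2, 106.3, 81.8 and 102.4, gave 0.44 and 0.32. That probe set was higher in both p53 pairs, unlike the brightest, while another ATF6 probe set gave 0.02 and -0.08. Dimmer ERN1 probe sets gave -0.07 and -0.52, and 0.29 and 0.18.

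Over the 14 ATF4 targets kept, the median p53 ratio was -0.07, equal to that of the sensors, and it was -0.15 among the 12 that were bright. The members that supply amino acids or charge tRNAs were below 0 in both pairs, 7 of 7, with a median of -0.26. Of the 6 members that are transcription factors or feedback proteins, 0 were below 0 in both pairs, 3 were above and their median was 0.09. VLDLR belongs to neither group. This split was made after the values were seen, and the difference between its groups was not tested.

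ASNS, which encodes asparagine synthetase, had a signal of 649.6 on the control array, 488.8 with p53 shRNA alone, 552.2 with Pontin siRNA alone and 438.4 with both. Both arrays with p53 shRNA lay below both arrays without it. It was 1.33-fold and 1.26-fold lower with p53 shRNA, a mean log2 ratio of -0.37 (SD 0.05, n = 2 pairs). Its smaller-pair ratio, the ratio nearer to 0, ranked 137 from the lowest of 7744 bright genes. The only other ASNS probe set was far below the signal limit, so ASNS rests on a single probe set.

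AARS1, the alanyl-tRNA synthetase gene, had signals of 552.0, 426.1, 633.1 and 427.9 in the same order. The arrays with p53 shRNA were again the lower ones, 1.30-fold and 1.48-fold below their partners (mean -0.47, SD 0.14, n = 2 pairs). It ranked 93 from the lowest among bright genes and has a single probe set. GARS1, the glycyl-tRNA synthetase gene, was at 3004.4, 2510.8, 2988.7 and 2509.6, or 1.20-fold and 1.19-fold lower. GARS1 signals with and without p53 shRNA did not overlap. WARS1, the tryptophanyl-tRNA synthetase gene and also an interferon-responsive one, was at 196.9, 172.8, 223.6 and 190.2. Its p53 ratios were -0.19 and -0.23, but a second WARS1 probe set gave 0.06 and -0.29.

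The amino acid transporter members were also below 0 in both p53 pairs. SLC7A5, the large neutral amino acid exchanger LAT1, had signals of 1815.8, 1560.2, 1737.4 and 1409.4. Its ratios were -0.22 and -0.30, and the arrays with p53 shRNA were the 2 lowest. SLC3A2, which encodes the heavy chain that pairs with LAT1 and with SLC7A11, was at 715.1, 667.7, 719.9 and 676.3, ratios of only -0.10 and -0.09. SLC7A11, the cystine importer gene xCT, was at 164.4, 115.0, 115.0 and 102.0. The control array alone was high, so its first p53 ratio was -0.52 and its second -0.17 (mean -0.34, SD 0.24, n = 2 pairs).

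Promoters of ASNS, AARS1 and GARS1 are shown because their signals with and without p53 shRNA did not overlap and each holds, before its start, the letters read by ATF4 with C/EBP partners. In SLC3A2, whose signals also did not overlap, the letters begin after the start. The window is the 250 bases before the annotated start, from RefSeq on GRCh38.p14, at chr7:97872409-97872658 (minus strand) for ASNS, chr16:70289507-70289756 (minus strand) for AARS1 and chr7:30594628-30594877 (plus strand) for GARS1, written 5′ to 3′ on the gene's strand. Capitals mark the motif TGATGNAAN on either strand.
ASNS: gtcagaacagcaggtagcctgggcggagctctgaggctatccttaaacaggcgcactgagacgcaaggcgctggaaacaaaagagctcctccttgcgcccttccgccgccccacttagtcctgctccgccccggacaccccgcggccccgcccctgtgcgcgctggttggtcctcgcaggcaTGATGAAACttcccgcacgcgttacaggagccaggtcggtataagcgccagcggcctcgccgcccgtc
AARS1: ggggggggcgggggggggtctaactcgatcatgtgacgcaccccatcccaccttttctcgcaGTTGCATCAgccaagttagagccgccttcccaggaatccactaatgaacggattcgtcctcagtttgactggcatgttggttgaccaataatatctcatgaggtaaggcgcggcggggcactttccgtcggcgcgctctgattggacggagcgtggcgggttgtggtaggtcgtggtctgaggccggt
GARS1: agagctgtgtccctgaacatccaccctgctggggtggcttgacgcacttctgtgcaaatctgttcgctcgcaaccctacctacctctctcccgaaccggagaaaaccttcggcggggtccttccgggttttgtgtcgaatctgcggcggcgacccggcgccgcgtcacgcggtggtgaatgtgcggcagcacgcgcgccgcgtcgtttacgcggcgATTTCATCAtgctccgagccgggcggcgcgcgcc
The motif began 188 bases before the start of AARS1. It began 68 bases before 1 of the 2 starts listed for ASNS and 34 before 1 of the 2 listed for GARS1, and the other window of each does not hold it. In windows of 300 bases, from 250 before to 50 after the start, it was present in 6 of the 13 ATF4 target members with a listed promoter: ATF3, ASNS, CHAC1, SLC3A2, AARS1 and GARS1. It was also present in the sensor-list member PPP1R15B and in HERPUD1, in 0 of 10 ER chaperone members, and in 3.61% of all 35116 windows. Here and below, a member counts if any of its windows holds a motif, while the shares are over single windows. A match is a description of letters and not a binding site, and some ATF4 targets without it in this window had the same direction, SLC7A5 and WARS1 among them. ATF3 and HERPUD1 hold the motif but on their brightest probe sets were above 0 in both p53 pairs, at 0.36 and 0.14 and at 0.08 and 0.22. PPP1R15B, which also holds it, was at -0.07 and -0.13.

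The regulatory ATF4 targets had mean p53 ratios above 0 for 4 of 6 genes. Over all genes this held for 5968 of 12066 genes kept and 3605 of 7744 bright genes, so the count does not set them apart. ATF3, a stress-induced repressor gene, had signals of 272.9, 350.4, 259.3 and 285.8 and ratios of 0.36 and 0.14. Its highest signal was on the array with p53 shRNA alone, and a second ATF3 probe set gave 0.40 and -0.15. DDIT3, which encodes the pro-apoptotic factor CHOP, was at 67.4, 85.8, 57.6 and 63.1, with ratios of 0.35 and 0.13. CEBPB, a C/EBP factor gene, was at 0.14 and 0.17, NUPR1, a small nuclear stress protein gene, at 0.04 and -0.07, and TRIB3, a pseudokinase that restrains ATF4, at -0.10 and 0.01. PPP1R15A, the inducible eIF2 phosphatase subunit GADD34, was at 0.17 and -0.11 with signals of 54.9 to 62.2. A second PPP1R15A probe set, dimmer but above the signal limit, gave -0.71 and -0.09.

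VLDLR, a lipoprotein receptor gene listed among ATF4 targets, had the largest member ratios with p53 shRNA. Its signal was 238.1 on the control array, 378.8 with p53 shRNA alone, 301.6 with Pontin siRNA alone and 450.0 with both. The arrays with p53 shRNA were the 2 highest. It was 1.59-fold and 1.49-fold higher (mean 0.62, SD 0.07, n = 2 pairs), and the second pair kept it just short of the 1.5-fold rule. It ranked 18 from the highest of 7744 bright genes by its smaller-pair ratio. After quantile and after cyclic loess normalization it passed 1.5-fold in both pairs. With median centring its mean was 0.49, and with 16 added to each signal 0.59, and it was called in neither. VLDLR has a single probe set, of a type that can detect several transcripts.

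The ER chaperones and folding enzymes showed no common direction with p53 shRNA. Their median was 0.00 over 11 genes, with 4 above and 3 below 0 in both pairs. HSPA5, which encodes the ER Hsp70 BiP, had signals of 4461.9, 4379.8, 4851.0 and 4877.5, and p53 ratios of -0.03 and 0.01. The lectin chaperone genes CANX and CALR were at -0.01 and 0.01, and at 0.02 and 0.05. DNAJB9, a BiP co-chaperone gene, was at 0.18 and 0.13 and HSP90B1, the ER Hsp90 GRP94, at 0.16 and 0.08, while SDF2L1, another BiP partner gene, was at -0.23 and -0.17. MANF, a secreted ER stress protein gene, was at 0.22 and -0.20. The disulfide isomerase genes PDIA3, PDIA4 and PDIA6 and the co-chaperone gene DNAJC3 stayed within 0.10 of 0 in each p53 pair. This held for their brightest probe sets, while some dimmer probe sets above the signal limit lay further from 0, in either direction. Those of DNAJC3 gave 0.09 and 0.51, -0.38 and -0.11, and 0.18 and 0.19. Those of PDIA6 gave -0.02 and 0.05, 0.16 and 0.30, and -0.01 and -0.06. For PDIA3 they gave -0.01 and -0.17, and 0.18 and 0.07, and for PDIA4 -0.09 and -0.12. DNAJB9 had 0.30 and 0.15, and 0.46 and 0.20, HSP90B1 0.43 and 0.10, and HSPA5 -0.31 and -0.07 on dimmer probe sets. In ERAD, HERPUD1, which helps assemble the ubiquitin ligase complex, was at 0.08 and 0.22, EDEM1, a mannosidase-like factor gene, at -0.07 and 0.04, and SEL1L, the ligase's adaptor gene, at 0.07 and -0.16. The ATF4 target median lay below the ER chaperone median by 0.09 in the first p53 pair and 0.11 in the second.

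**Figure D2:**
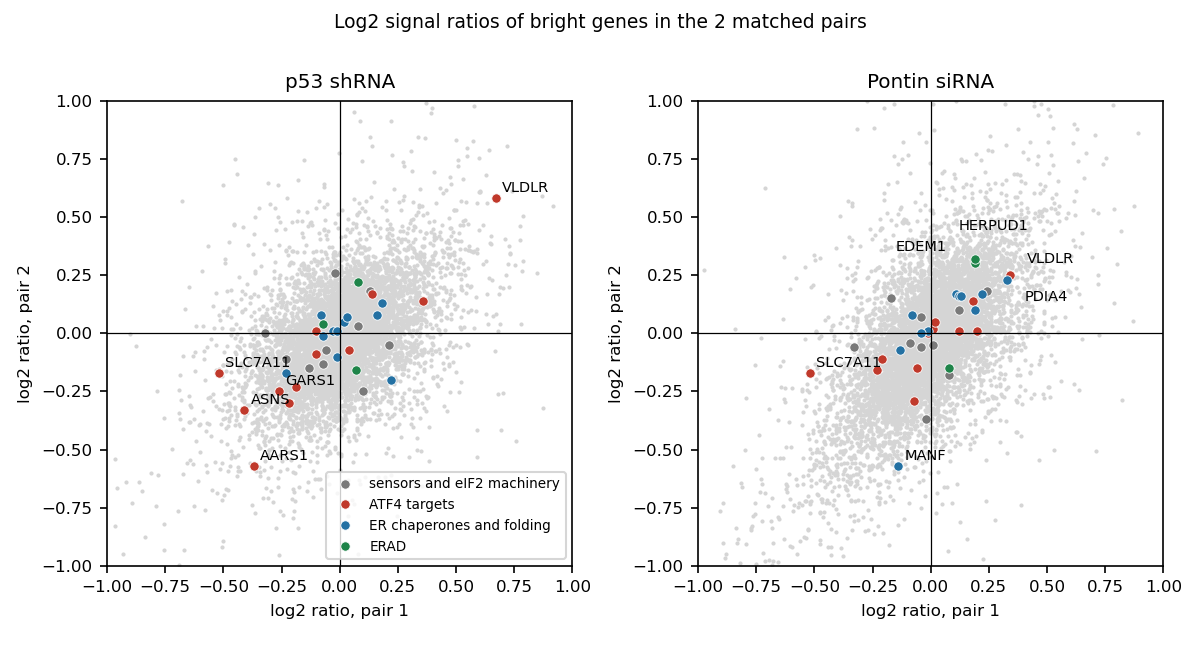
First against second pair for p53 shRNA (left) and Pontin siRNA (right), both axes log2 ratios from -1 to 1. Grey points are bright genes within that range and coloured points the 36 bright members by role. VLDLR lies at the upper right edge for p53 shRNA, with ASNS, AARS1, GARS1 and SLC7A11 at the lower left, and with Pontin siRNA PDIA4, HERPUD1 and EDEM1 lie at the upper right within the cloud.

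Further genes of the same pathways, 89 in a list chosen by function, were read in the same way, and 82 were kept. The list was made with earlier results of these data known, so it is not an independent check of the members. Of 29 further ATF4 targets kept, 17 were below and 4 above 0 in both p53 pairs, with a median of -0.11. PSAT1, the serine synthesis transaminase gene, was the only one called, lower with p53 shRNA at -0.92 and -0.64. Taking the listed members and further genes together, 10 of 11 cytosolic tRNA synthetases were below 0 in both p53 pairs, with a median of -0.15. YARS1, for tyrosine, was at -0.35 and -0.21, and EPRS1, for glutamate and proline, was the exception at 0.06 and 0.07. After averaging each gene's probe sets, 7 of 11 were below 0 in both pairs. The tRNA synthetase group was put together after the values were seen. Among 7 amino acid transporters kept from members and further genes together, 6 were below 0 in both pairs. The members SLC7A5, SLC3A2 and SLC7A11, described above, are among these 6. Of the further genes, the glutamine carrier gene SLC1A5 was at -0.20 and -0.35, while SLC38A2 was at 0.15 and 0.10.

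The other further lists had p53 medians of -0.06 for 16 sensors and eIF2 genes, -0.04 for 21 folding genes and 0.01 for 16 ERAD genes. Of the further sensors and eIF2 genes, 9 were below and 3 above 0 in both pairs. EIF2S2, the eIF2 beta subunit gene, was at -0.16 and -0.17, and ATF6B, an ATF6 relative, at 0.22 and 0.45. CREB3L4, an ER-anchored transcription factor gene, was at -0.21 and -0.19, and RTCB, the ligase gene that joins the spliced XBP1 ends, at -0.20 and -0.16. Of the further folding genes, 11 were below and 5 above 0 in both pairs. ERO1A, the oxidase gene that recharges disulfide isomerases and is also hypoxia-induced, was at 0.27 and 0.36, and CRELD2, an ER stress-induced gene, at -0.29 and -0.17. TXNDC11 was at -0.11 and -0.23 and DNAJB11, a BiP co-chaperone gene, at -0.11 and -0.13. In ERAD, DERL3, which encodes a derlin, was at 0.58 and 0.78 on signals of only 18.3 to 32.2. The derlin gene DERL2 was at -0.14 and -0.14, EDEM2 at 0.16 and 0.09, and the ubiquitin-conjugating enzyme gene UBE2G2 at -0.24 and -0.07. SESN2, a sestrin gene raised by ATF4, was at 0.19 and 0.42 on signals of 42.3 to 58.4.

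With Pontin siRNA the list medians furthest from 0 were those of the ER chaperones and of 3 ERAD genes (0.25). The chaperone median was 0.14 over 11 genes, against -0.00 for bright genes, with 6 above and 3 below 0 in both pairs. The first pair gave a median of 0.11 and the second 0.10. Centring each array on its median turned the chaperone median to -0.04 while the median of all genes kept went to -0.16, so the chaperones stayed above all genes. This median depended on the choice of probe set. Averaging each gene's probe sets gave 0.02, and it was -0.02 over the 9 chaperones that have a probe set outside the types that can detect several transcripts.

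PDIA4, an ER disulfide isomerase gene, had signals of 877.9 on the control array, 872.4 with p53 shRNA alone, 1102.9 with Pontin siRNA alone and 1026.2 with both. The arrays with Pontin siRNA were the 2 highest, 1.26-fold and 1.18-fold above their partners (mean 0.28, SD 0.07, n = 2 pairs). Its second probe set, at 692.0, 652.3, 690.9 and 637.5, gave -0.00 and -0.03, so the probe sets disagreed. HERPUD1 had signals of 2239.2, 2366.3, 2547.0 and 2958.9, with the arrays with Pontin siRNA above the others by 0.19 and 0.32. EDEM1 was at 527.9, 504.5, 603.7 and 621.2, ratios of 0.19 and 0.30, again with no overlap between the arrays with and without Pontin siRNA, on a single probe set. SEL1L, at 0.08 and -0.15, did not share this pattern.

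Apart from MANF, the remaining chaperones had smaller mean ratios than PDIA4. Of 37 other probe sets of members above the signal limit, 20 had the same sign of the mean Pontin ratio as the brightest one and 24 of the mean p53 ratio. HSPA5 was 1.09-fold and 1.11-fold higher with Pontin siRNA (0.12 and 0.16), and its dimmer probe set gave -0.30 and -0.06. HSP90B1 was at 0.19 and 0.10, and its dimmer probe set gave -0.03 and -0.37. DNAJB9 was at 0.22 and 0.17, while its other probe sets gave -0.01 and -0.16, and 0.11 and -0.15. CALR was at 0.13 and 0.16, with 0.14 and 0.06, and 0.02 and 0.27 on its other probe sets, so all 3 lay above 0 in both pairs. SDF2L1 was at 0.11 and 0.17 on its single probe set. CANX was at -0.01 and 0.01, PDIA3 at -0.04 and -0.00, PDIA6 at -0.08 and 0.08 and DNAJC3 at -0.13 and -0.07.

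MANF was lower with Pontin siRNA in both pairs. Its signals were 1325.6, 1547.6, 1202.7 and 1043.8, so the arrays with Pontin siRNA were the 2 lowest. The ratios were -0.14 and -0.57, the widest gap between pairs among the members kept (mean -0.35, SD 0.30, n = 2 pairs).

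**Figure D3:**
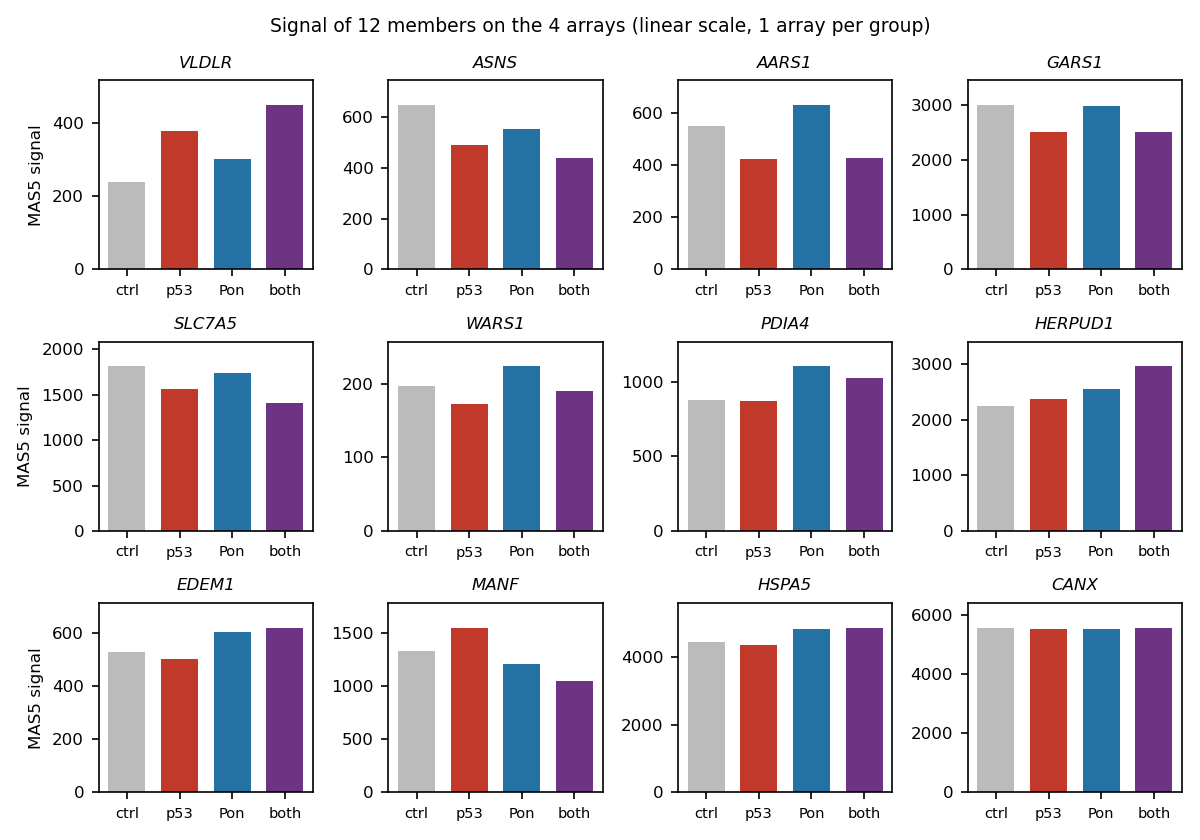
Deposited MAS5 signal of 12 members on each array, linear axis from 0, 1 bar per array: control shRNA (ctrl), p53 shRNA (p53), Pontin siRNA (Pon) and both. ASNS, AARS1, GARS1 and SLC7A5 are lower and VLDLR is higher on both arrays with p53 shRNA, PDIA4, HERPUD1 and EDEM1 are higher on both arrays with Pontin siRNA, and CANX stays between 5531.2 and 5578.4.

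Promoters of HSPA5, CALR and HERPUD1 are shown as the ER counterparts of the sequences above, since their genes had ratios above 0 in both Pontin pairs. The windows are again the 250 bases before the start, RefSeq GRCh38.p14, at chr9:125241344-125241593 (minus strand), chr19:12938359-12938608 (plus strand) and chr16:56931892-56932141 (plus strand). Capitals mark the ER stress response element (CCAAT, any 9 bases, then CCACG) in HSPA5 and CALR. In HERPUD1 they mark first TGATGNAAN and then the second ER stress element (ATTGG, any 1 base, then CCACG). Each was searched on both strands.
HSPA5: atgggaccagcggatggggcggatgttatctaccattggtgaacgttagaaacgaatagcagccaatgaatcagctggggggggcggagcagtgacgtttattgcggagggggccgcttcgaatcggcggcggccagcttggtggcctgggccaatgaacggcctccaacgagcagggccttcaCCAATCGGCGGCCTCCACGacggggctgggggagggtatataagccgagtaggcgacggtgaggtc
CALR: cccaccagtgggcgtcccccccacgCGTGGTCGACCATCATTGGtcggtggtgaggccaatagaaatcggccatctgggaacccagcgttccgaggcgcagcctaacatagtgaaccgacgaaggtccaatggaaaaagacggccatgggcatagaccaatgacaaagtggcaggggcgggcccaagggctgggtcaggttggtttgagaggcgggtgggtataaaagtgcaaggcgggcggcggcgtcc
HERPUD1: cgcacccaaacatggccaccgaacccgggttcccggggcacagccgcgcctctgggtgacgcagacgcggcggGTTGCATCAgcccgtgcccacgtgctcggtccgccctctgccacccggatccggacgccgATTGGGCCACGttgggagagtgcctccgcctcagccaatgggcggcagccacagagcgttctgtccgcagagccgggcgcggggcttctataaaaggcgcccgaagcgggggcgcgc
The element began 66 bases before the start of HSPA5 and 225 before that of CALR. In windows of 300 bases this element was present in HSPA5, HSP90B1, CALR, CANX and PDIA6, 5 of 10 chaperone members with a listed promoter, in the sensor-list member XBP1, in 0 of 13 ATF4 targets and in 0.0769% of all windows. The second element was present in SDF2L1 and HERPUD1 among members and in 0.0541% of all windows. HERPUD1 alone among members held both an ATF4-type and an ER stress-type motif. The XBP1 motif TGACGTGG was found in 0 members and in 0.729% of windows. On their brightest probe sets, genes with the same element had different Pontin ratios, since CANX and PDIA6 had mean ratios of -0.00 and 0.00. Other probe sets above the signal limit differed. Those of CANX gave 0.10 and 0.11, 0.15 and -0.03, and -0.35 and -0.38. Those of PDIA6 gave 0.04 and 0.10, -0.11 and 0.03, and 0.20 and 0.14.

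ATF4 targets had no common direction with Pontin siRNA, at a median of -0.02 over 14 genes, 6 above and 7 below 0 in both pairs. DDIT3 was at -0.23 and -0.44 and ATF3 at -0.07 and -0.29, with a second ATF3 probe set at -0.22 and -0.77. SLC7A11 was at -0.52 and -0.17, and its second probe set, at 89.5, 74.3, 60.8 and 55.9, gave -0.56 and -0.41. On that second probe set both arrays with Pontin siRNA were lower than both without. ASNS was at -0.23 and -0.16 and TRIB3 at -0.21 and -0.11. VLDLR was at 0.34 and 0.25 and WARS1 at 0.18 and 0.14. The other tRNA synthetase members were near 0, with GARS1 at -0.01 and -0.00 and AARS1 at 0.20 and 0.01. SLC7A5 was at -0.06 and -0.15, SLC3A2 at 0.01 and 0.02, CEBPB at 0.02 and 0.05, NUPR1 at 0.12 and 0.01, and PPP1R15A at 0.10 and -0.18. The second PPP1R15A probe set gave 0.08 and 0.71. The ATF4 target median lay below the chaperone median by 0.11 in the first Pontin pair and 0.16 in the second.

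Sensors and eIF2 genes had a Pontin median of -0.03, with 2 above and 4 below 0 in both pairs. EIF2AK1 was at 0.24 and 0.18, and its dimmer probe set, with signals of 72.5, 77.8, 132.8 and 136.9, was 0.87 and 0.82 higher. Both EIF2AK1 probe sets thus had the same sign, at different sizes. EIF2AK2 was at -0.02 and -0.37 and ERN1 at -0.33 and -0.06. Other EIF2AK2 probe sets gave -0.22 and -0.22, and 0.10 and 0.20, and those of ERN1 0.16 and -0.29, and -0.17 and -0.28. ATF4 was at -0.17 and 0.15, ATF6 at 0.12 and 0.10, XBP1 at -0.04 and -0.06, EIF2AK3 at -0.09 and -0.04, EIF2AK4 at 0.08 and -0.18, EIF2S1 at -0.04 and 0.07 and PPP1R15B at 0.01 and -0.05. The other ATF6 probe sets were mixed in sign, at 0.06 and -0.04, -0.90 and 0.37, and 0.06 and -0.05.

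The further lists had Pontin medians of 0.01 to 0.05. The 21 further folding genes had a median of 0.02, with 9 above and 8 below 0 in both pairs. DNAJB11 was at 0.22 and 0.19, whereas FKBP14, a prolyl isomerase gene, was at -0.30 and -0.45, TXNDC11 at -0.30 and -0.42, and SEC62 and DNAJC10, of ER import and reduction, at -0.35 and -0.29 and at -0.30 and -0.31. Of 16 further ERAD genes, 5 were above and 6 below 0 in both pairs, median 0.01. OS9, an ERAD lectin gene, was at 0.49 and 0.22, SELENOS, a selenoprotein gene of the retrotranslocation complex, at -0.38 and -0.24, and the derlin gene DERL1 at -0.30 and -0.35. UBE2J1, an ER membrane ubiquitin-conjugating enzyme gene, was at 0.23 and 0.21. Of 29 further ATF4 targets, 11 were above and 9 below 0 in both pairs, median 0.05. PSAT1 was called higher at 0.62 and 0.90, while PSPH, the next enzyme of serine synthesis, was at -0.39 and -0.42. ALDH18A1, a proline synthesis enzyme gene, was at 0.24 and 0.43 and EPRS1 at -0.28 and -0.27. The 16 further sensors and eIF2 genes had a median of 0.04, with MBTPS2, the protease that releases ATF6, at -0.28 and -0.21 and EIF2B5, the catalytic subunit gene of the eIF2 exchange factor, at -0.22 and -0.25. CREB3L4 was at -0.23 and -0.22 and ATF6B at 0.19 and 0.42.

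**Figure D4:**
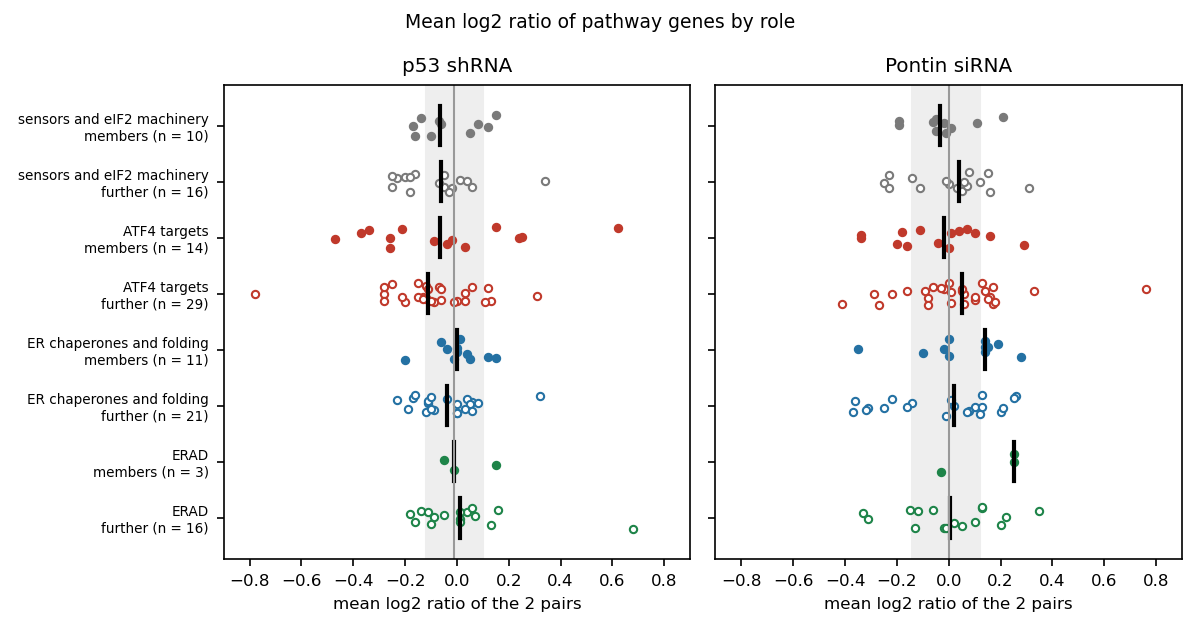
Mean log2 ratio of the 2 pairs for each gene, by role, for members (filled) and further pathway genes (open), with p53 shRNA left and Pontin siRNA right. Black bars are list medians, the grey line and band are the median and middle 50% of bright genes. The further ATF4 targets have a median of -0.11 with p53 shRNA, and the chaperone members a median of 0.14 and the further folding genes 0.02 with Pontin siRNA.

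Cells with both knockdowns were set directly against the control. This comparison shares the control array with the first pair of each knockdown. VLDLR, at 0.92 or 1.89-fold higher, and SLC7A11, at -0.69 or 1.61-fold lower, were the members past 1.5-fold, against 2.16% of bright genes higher and 3.67% lower (7.49% and 5.74% of genes kept). ASNS was at -0.57, 1.48-fold lower, and AARS1 and SLC7A5 were both at -0.37. HERPUD1 was at 0.40, DNAJB9 at 0.35 and HSP90B1 at 0.26, while MANF was at -0.34. The list medians were -0.09 for ATF4 targets, 0.03 for chaperones, -0.10 for sensors and 0.23 for the 3 ERAD genes, against -0.02 for bright genes.

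The departure from additivity, the log2 signal with both knockdowns minus that with each alone plus that of the control, was under 1.5-fold for all 38 members kept, where 2.6% of bright genes and 13.1% of genes kept passed. At 0.32 there were 4 members, against 13.3% of bright genes and 28.3% of genes kept: MANF at -0.43, EIF2AK2 at -0.35, SLC7A11 at 0.34 and ATF4 at 0.33. GARS1 and SLC3A2 departed by 0.01, CANX by 0.02 and ASNS by 0.08, so their signals with both knockdowns were close to the sum of the single log2 ratios. The median size of the departure was 0.09 over members and 0.12 over bright genes.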

How the data were processed

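The deposited table holds MAS5 signal intensity on a linear scale, named in the submitters' processing notes without a version; with 2% of values trimmed at either end every array averaged 150.0, the authors' common scaling. Total RNA (200 ng per array) came from 4 cultures, 1 per group, taken from the sample titles, so the 4 arrays limit the precision. Detection calls were not used here. Probe sets with 1 gene symbol (41097; 1801 had several) were named through the platform annotation, updated by Entrez identifier. Signals were taken to log2 without further normalization; 14 zeros were set to 0.1. Genes at or above a signal of 15.3 were kept. Ratios were computed in Python 3.11.15, and limma 3.58.1 in R 4.3.3 gave quantile, cyclic loess and additive-fit alternatives. The calling rule and fit were tested on simulated data with 2-fold changes. Changes as small as the member ratios were not simulated. All members were named, with further genes called or, per role, the 4 with the largest smaller-pair ratio; others were chosen after their values were seen. Members and lists were chosen with earlier results of these data known.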

Additional observations from a re-analysis of the deposited data

Results flagged for a closer look

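Members whose 2 pairs had opposite signs, each at least 0.1 in log2, were looked at again. The difference between pairs was not tested, since no group had a replicate. For p53 shRNA, MANF was at 0.22 without and -0.20 with Pontin siRNA, a departure from additivity of -0.43. EIF2AK2 was at 0.10 and -0.25, a departure of -0.35, while its second probe set gave 0.01 and 0.01. PPP1R15A was at 0.17 and -0.11, a departure of -0.28, on signals of 54.9 to 62.2. Its second probe set, at 29.3, 17.9, 31.0 and 29.2, gave -0.71 and -0.09, so it did not share the opposite signs. For Pontin siRNA, ATF4 was at -0.17 without and 0.15 with p53 shRNA, a departure of 0.33.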

How the results depend on the processing

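No paired analysis was possible because the labels carry no replicate numbers and each group has 1 array, so no replicate block could be fitted; the pairs of arrays match conditions, not replicates. Counts of called members moved from 0 as follows. With p53 shRNA, 1 member was higher after quantile and cyclic loess normalization and at the 0.32 log2 limit (VLDLR) and with the mean over probe sets (XBP1, through its dim probe set), and 2 were lower at 0.32. With Pontin siRNA, 1 was higher with the mean over probe sets (HERPUD1, through a dim probe set). The limma additive fit, which takes the departure from additivity as error with 1 residual degree of freedom, called VLDLR higher (1) and ASNS, AARS1 and GARS1 lower (3) with p53 shRNA, and PDIA4 and HERPUD1 higher (2) and MANF lower (1) with Pontin siRNA, at a Benjamini-Hochberg adjusted p under 0.05. Over all genes that fit called 1.77% higher and 1.64% lower, and 2.63% and 4.87%. Each pair alone, leaving out the control array or the array with both knockdowns and chosen after seeing the data, gave 0 to 1 member higher with p53 shRNA. Past 1.5-fold with both knockdowns against control, members higher numbered 5 with the mean over probe sets and 0 without cross-detecting probe set types, where VLDLR has no value. Members lower numbered 5 with median centring and 0 with the mean over probe sets. At 2-fold 0 were higher and 0 lower, and at 0.32 there were 3 and 5. Departures past the threshold numbered 2 with median centring, 4 with the mean over probe sets and 4 at 0.32.

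Median centring moved the median of all genes kept to -0.13 for p53 shRNA, and to -0.16 for Pontin siRNA. List medians then were -0.20 for sensors, -0.20 for ATF4 targets, -0.13 for chaperones and -0.14 for ERAD for p53 shRNA. For Pontin siRNA they were -0.21, -0.20, -0.04 and 0.07, so the chaperone sign turned but stayed above the median of all genes, with 0 chaperones above 0 in both pairs. The chaperone Pontin median was also -0.02 without cross-detecting types, with 2 of 9 above 0 in both pairs, and 0.02 with the mean over probe sets, where its p53 median was 0.05. The p53 median of ATF4 targets was -0.15 among bright genes alone. Amino acid supply and tRNA charging members below 0 in both p53 pairs were 7 of 7 under each scaling, 6 of 7 with the mean over probe sets and 3 of 3 without cross-detecting types, and tRNA synthetases 6 of 6 there. The cause of these shifts was not tested, beyond fewer genes having a value without cross-detecting types. DDIT3, PPP1R15A and CHAC1 had the lowest signals and are the least firmly measured members.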
